A study of Mus musculus with 4 samples.

Results

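The eosinophil-associated ribonuclease genes Ear1, Ear2 and Ear6 are 3 of the 17780 genes measured in mouse lung RNA by poly(A)-selected RNA-Seq. They were picked from the measured values, because amiodarone against vehicle gave a higher level of Ear6 and lower levels of Ear1 and Ear2, so that comparison is given as a description. All mice were male C57BL/6 mice (C57BL/6J in the methods), bought at 6 to 7 weeks of age. They received by mouth either vehicle (a carboxymethylcellulose suspension), amiodarone at 300 mg per kg per day, dabigatran (given as its prodrug dabigatran etexilate) at 60 mg per kg per day, or amiodarone and dabigatran together, 5 times per week. RNA came from the left lung, which the methods date to day 26, while the labels give each treatment as lasting 28 days. How many mice each library holds is not given in the sources used here. Amiodarone is an anti-arrhythmic drug that can injure the lung, and dabigatran is a direct thrombin inhibitor. Each of the 4 groups has 1 library, so there is no replicate, no test across animals and no p-value. The study asked how the lung transcriptome changes with amiodarone and whether dabigatran alters that change.

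Ear genes encode small secreted enzymes of the ribonuclease A family, which cut RNA and are stored in leukocyte granules or released. Mice carry many close copies of these genes, which have multiplied and diverged in rodents, and their proteins were first found in eosinophil granules. In the mouse lung, Ear1 and Ear2 are also known as genes of resident alveolar macrophages, and Ear2 is further known from monocytes. Ribonuclease inhibitor, encoded by Rnh1, binds members of the family in the cytosol.

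The 3 genes lie on chromosome 14 of GRCm38.p6. Ear1 (gene identifier 13586) runs from 43818765 to 43819639 on the minus strand. Ear2 (13587) runs from 44102654 to 44103531 and Ear6 (93719) from 51853768 to 51854643, both on the plus strand. In GENCODE release M21, each has 2 exons, with the whole coding sequence in 1 of them. Because they are close copies, the sequences that tell them apart bear on every value below. Over the coding sequence, Ear1 and Ear2 were 95.7% identical, Ear1 and Ear6 87.4%, and Ear2 and Ear6 88.0%. The 90-base coding stretch without gaps that holds the most differences is shown for each gene, in GENCODE sequence on GRCm38, with capitals at the bases where the 3 genes are not all alike. It covers chr14:43818989-43819078 on the minus strand for Ear1, chr14:44103221-44103310 for Ear2 and chr14:51854329-51854418 for Ear6.
Ear1: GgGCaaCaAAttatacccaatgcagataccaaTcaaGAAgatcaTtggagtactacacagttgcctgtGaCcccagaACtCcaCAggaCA
Ear2: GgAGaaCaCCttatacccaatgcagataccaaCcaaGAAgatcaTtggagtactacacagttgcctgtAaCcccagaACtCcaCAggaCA
Ear6: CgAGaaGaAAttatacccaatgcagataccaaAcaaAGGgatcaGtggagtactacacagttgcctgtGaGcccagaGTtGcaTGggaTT

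In this stretch Ear6 differs from Ear1 at 17 bases and from Ear2 at 18, whereas Ear1 and Ear2 differ at 6. Reads that match more than 1 copy are divided by estimation, and the read length is not given in the sources used here. Of all windows of 100 bases in the annotated Ear6 transcript, 0% occurred in a transcript of another gene, and of windows of 50 bases 1.36% did. For Ear1 the shares were 23.9% and 57.4%, and for Ear2 13.9% and 41.5%. No window of 100 bases was shared among Ear1, Ear2 and Ear6 themselves. Of windows of 50 bases, 23.8% of those in Ear1 occurred in Ear2, and 23.6% of those in Ear2 occurred in Ear1. At 100 bases, the copies that share windows with Ear1 or Ear2 were Ear10 and the pseudogenes Ear-ps2 and Ear-ps9, which were not analysed here. Ear10 has no value of its own among the genes measured, and whether its reads were counted as Ear1 or Ear2 was not tested. The levels of Ear1 and Ear2 are therefore less certain than that of Ear6.

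Ear6 differed from the other 2 genes across the libraries. Ear1 and Ear2 also differed from each other, with ratios of 0.422 and 1.07 for amiodarone and dabigatran against dabigatran alone. The 250 bases before the annotated start of each gene were therefore also compared. They are RefSeq sequences on GRCm38.p6, at chr14:43819640-43819889 on the minus strand for Ear1, chr14:44102404-44102653 for Ear2 and chr14:51853518-51853767 for Ear6. Capitals mark bases where the 3 aligned sequences are not all alike, within the stretch that all 3 cover. Bases outside that stretch are in lower case whether alike or not.
Ear1: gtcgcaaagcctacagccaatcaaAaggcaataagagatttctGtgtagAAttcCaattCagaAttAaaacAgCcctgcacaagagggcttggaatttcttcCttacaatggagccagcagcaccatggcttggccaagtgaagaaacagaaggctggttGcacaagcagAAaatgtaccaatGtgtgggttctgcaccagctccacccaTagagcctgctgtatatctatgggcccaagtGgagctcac
Ear2: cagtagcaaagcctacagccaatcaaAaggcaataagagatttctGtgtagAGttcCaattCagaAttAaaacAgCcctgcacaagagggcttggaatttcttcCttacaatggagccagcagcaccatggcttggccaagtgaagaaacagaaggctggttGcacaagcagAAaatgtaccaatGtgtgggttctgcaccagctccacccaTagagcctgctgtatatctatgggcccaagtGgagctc
Ear6: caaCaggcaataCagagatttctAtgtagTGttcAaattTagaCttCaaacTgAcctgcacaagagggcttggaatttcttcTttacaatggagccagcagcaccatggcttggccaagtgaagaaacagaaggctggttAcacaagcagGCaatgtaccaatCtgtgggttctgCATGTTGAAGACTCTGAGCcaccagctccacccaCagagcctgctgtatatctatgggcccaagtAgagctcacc

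Over the aligned stretch that all 3 windows cover, the promoters of Ear1 and Ear2 differed at 1 aligned base (99.6% identity). There, that of Ear6 was 92.5% identical to Ear1 and 93.0% to Ear2. Bases outside this stretch were not counted, and Ear1 and Ear2 are not fully alike in the bases before it. In this alignment Ear6 holds a run of 19 bases, CATGTTGAAGACTCTGAGC, from -75 to -57 relative to the start, which is absent from both other genes. The letters TTGCNNAA, the form bound by C/EBP factors, were found once in Ear1, from -92, and once in Ear2, from -90, and not in Ear6. They occur on either strand in 9.56% of the 32851 promoters of the same length. CCAAT was found at 3 positions in Ear1, at 3 in Ear2 and at 1 in Ear6, against 33.8% of all promoters with at least 1 match. The counts are not fully comparable, because the Ear6 window begins just inside the outermost CCAAT of Ear1 and Ear2 in the alignment. Whether Ear6 holds that outermost match was not examined. The middle match of Ear1 and Ear2 reads CAAAT in Ear6. AGGTCA, a nuclear receptor element, was found in Ear6 alone of the 3 genes, on the opposite strand, and in 14.0% of all promoters. GAGGAA (the core bound by PU.1) and TATAAA were matched in none of the 3 windows on either strand, and in 23.3% and 12.4% of all promoters. No motif searched contains another, and a match is a description of the letters and not evidence of binding.

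Levels are given as FPKM (fragments per kilobase of transcript, divided by the depth of the library, on a linear scale), followed by the estimated reads. The libraries held between 17498486 and 18903401 estimated reads on genes. A ratio compares 2 libraries and not 2 treatments. Its 95% interval is an exact Clopper-Pearson interval from the reads, which covers counting error only, and sequenced fragments are not independent molecules. A gene was counted as at least 2-fold higher or lower on the log2(FPKM + 1) scale, among genes that reached 1 FPKM in either of the libraries compared.

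Ear6 had 0.35 FPKM with vehicle, 63.97 FPKM with amiodarone, 0 FPKM with dabigatran and 31.00 FPKM with amiodarone and dabigatran. These values rest on 4, 786, 0 and 385 reads. Both libraries from mice given amiodarone were therefore high and both libraries without it were at or near 0. With amiodarone, Ear6 stood above 93.3% of the genes in level, and with vehicle above 19.1%. The ratio of amiodarone to vehicle was 183 (71.1 to 672), which is the comparison that chose the gene. Amiodarone and dabigatran against dabigatran alone uses a pair of libraries that did not choose it. There, with the count of 0 set to a floor of 3 reads, or 0.257 FPKM, the ratio was 121. This ratio leaves out the counting error of the 385 reads, so it is not a 95% limit. On the log2(FPKM + 1) scale, the difference was 5.59 for amiodarone against vehicle and 5.0 for the combination against dabigatran, which placed Ear6 at rank 1 from the highest of 13402 and of 13379 genes. The level with the combination was 0.485 times that with amiodarone alone (0.428 to 0.548). Between dabigatran and vehicle, 0 against 4 reads, no difference was detectable at this depth (95% upper limit of the ratio 1.49).

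Ear1 had 22.30 FPKM with vehicle, 4.48 FPKM with amiodarone, 24.43 FPKM with dabigatran and 10.31 FPKM with the combination, from 256, 55, 284 and 128 reads. The 2 libraries without amiodarone were the high ones, and the combination lay between them and amiodarone alone. The ratio of amiodarone to vehicle was 0.201 (0.147 to 0.270), again the choosing comparison. On the log2(FPKM + 1) scale the difference was -2.09, at rank 2 from the lowest of 13402 genes. In the combination against dabigatran the ratio was 0.422 (0.340 to 0.522), and the difference of -1.17 stood at rank 32 from the lowest of 13379. Against amiodarone alone, the combination was higher by a ratio of 2.30 (1.67 to 3.22), but it stayed at 0.462 times the vehicle level (0.371 to 0.574). Dabigatran and vehicle differed within counting error, with a ratio of 1.10 (0.922 to 1.30).

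Ear2 had the highest level of the 3 copies in every library except that of amiodarone alone. It had 62.35 FPKM with vehicle, 39.21 FPKM with amiodarone, 60.37 FPKM with dabigatran and 64.84 FPKM with the combination, from 719, 484, 705 and 809 reads. Only the amiodarone library stood apart, and the other 3 were not separated by counting error. Amiodarone to vehicle gave a ratio of 0.629 (0.559 to 0.707), which the choice of the gene had used. Unlike Ear1, Ear2 was not lower in the combination than with dabigatran, with a ratio of 1.07 (0.970 to 1.19), and its level with the combination was 1.65 times that with amiodarone (1.48 to 1.85). Dabigatran to vehicle gave 0.968 (0.871 to 1.08), and the combination to vehicle 1.04 (0.939 to 1.15).

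**Figure D1:**
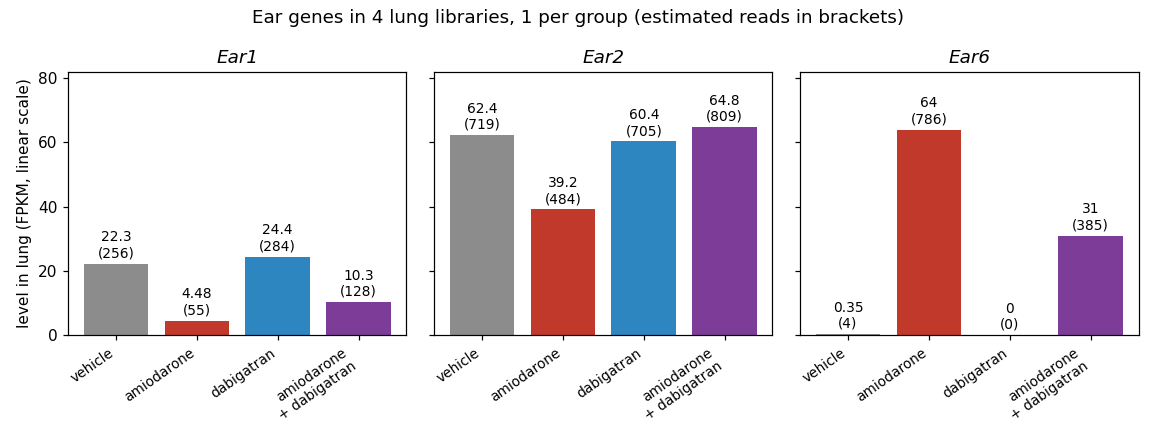
Level of Ear1, Ear2 and Ear6 in each lung library, in FPKM on a linear axis from 0, with 1 library per group and the estimated reads in brackets. Ear6 is at 63.97 and 31.00 FPKM in the libraries with amiodarone and at 0.35 and 0 FPKM in those without it, whereas Ear1 is at 4.48 and 10.31 FPKM with amiodarone and at 22.30 and 24.43 FPKM without it.

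Of the 3 genes, Ear6 was at least 2-fold higher and Ear1 at least 2-fold lower with amiodarone than with vehicle, while 1.87% and 0.545% of all genes compared were higher and lower to this extent. Since this comparison chose the genes, nothing is read from those counts. In the combination against dabigatran, the same 2 genes were again at least 2-fold higher and lower, against 1.15% and 0.434% of all genes. In the combination against amiodarone, Ear1 was at least 2-fold higher (0.189% of all genes) and Ear6 at least 2-fold lower (0.287% of all genes), while Ear2 differed by 0.71 on the log2(FPKM + 1) scale and did not reach 2-fold. Between dabigatran and vehicle, neither Ear1 nor Ear2 reached 2-fold, against 0.0897% of genes higher and 0.0673% lower, and Ear6 was under 1 FPKM in both libraries. Each of the 3 genes was thus nearer to its vehicle level with the combination than with amiodarone alone. This comparison shares the amiodarone library with the one that chose the genes.

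**Figure D2:**
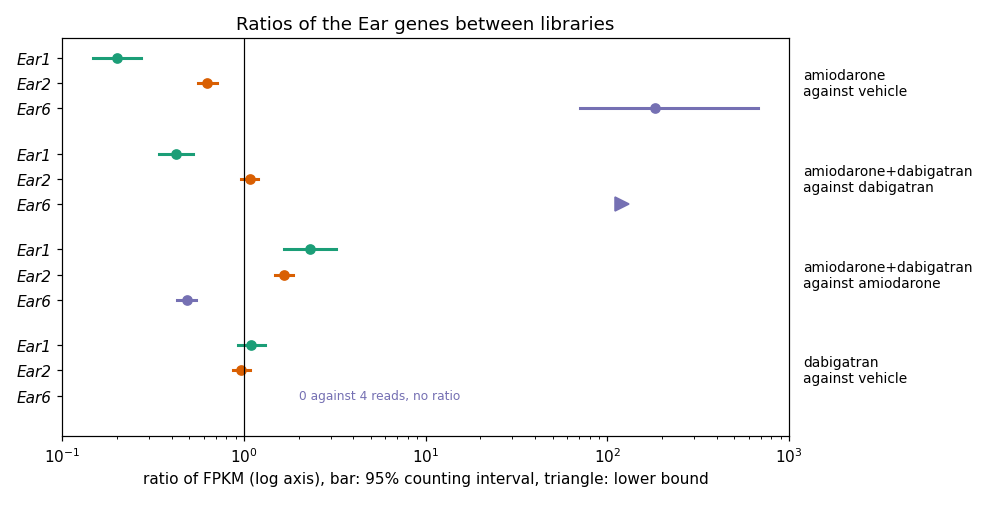
Ratio of FPKM between pairs of libraries for each Ear gene, on a log axis. Points are ratios and bars are 95% counting intervals. The triangle, labelled as a lower bound, is a ratio to a floor of 3 reads, without the counting error of the other library. Ear6 lies at 183 for amiodarone against vehicle and at 121 for the combination against dabigatran. Ear1 lies at 0.201 and 0.422 in the same comparisons.

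As reads of close copies are divided by estimation, the sum of the 3 genes was examined as well. Windows of 50 bases are shared among them, but no window of 100 bases is. The copies that share windows of 100 bases with Ear1 and Ear2 are outside the sum. The sum therefore checks only a part of that estimation. Ear1, Ear2 and Ear6 together had 979 reads in the vehicle library and 989 in the dabigatran library, against 1325 in the amiodarone library and 1322 in the combination. In FPKM the sums were 85.0 and 84.8 without amiodarone, and 107.66 and 106.15 with it. The combination and amiodarone alone differed within counting error, with a ratio of 0.986 (0.913 to 1.06), as did dabigatran and vehicle, at 0.998 (0.912 to 1.09). The sum was 1.27 times higher with amiodarone than with vehicle (1.17 to 1.38), and 1.25 times higher with the combination than with dabigatran (1.15 to 1.36).

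Within this sum, the shares of the copies differed between libraries. Ear6 held 0.409% of the reads of the 3 genes with vehicle (exact 95% interval 0.111% to 1.04%), 59.3% with amiodarone (56.6% to 62.0%) and 29.1% with the combination (26.7% to 31.7%). With dabigatran it held 0 of 989 reads (upper end of the exact 95% interval 0.372%). Ear1 held 26.1% with vehicle and 28.7% with dabigatran, but 4.15% with amiodarone and 9.68% with the combination. Ear2 was the main copy with vehicle (73.4%), dabigatran (71.3%) and the combination (61.2%), and held 36.5% with amiodarone. The order of the copies was Ear2, Ear1, Ear6 in both libraries without amiodarone, Ear6, Ear2, Ear1 with amiodarone, and Ear2, Ear6, Ear1 with the combination.

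**Figure D3:**
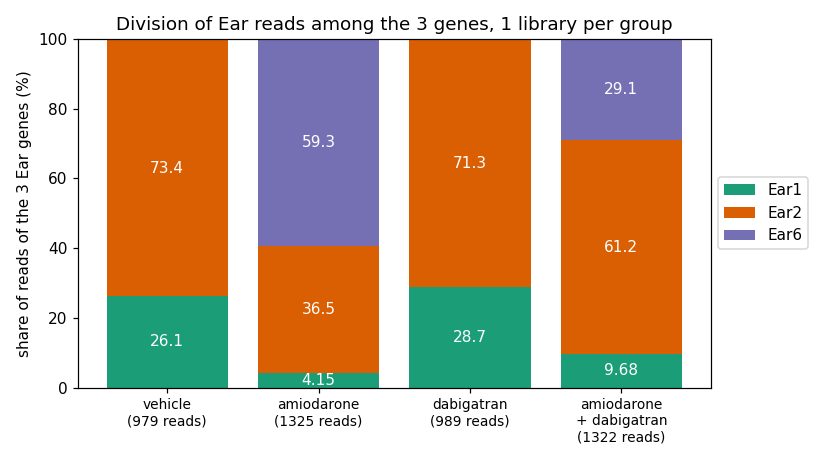
Share of the estimated reads of Ear1, Ear2 and Ear6 taken by each gene, in percent, with 1 bar per library and the summed reads under it. Ear6 takes 59.3% of the reads with amiodarone and 29.1% with the combination, and under 1% in the other libraries.

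Differences of this size were not seen in the abundant genes of the rest of the ribonuclease A family or in the gene of its inhibitor. Of 17 genes listed for the family and its inhibitor, 12 are in the table, and 4 had at least 1 FPKM in a library. None of these 4, which include the inhibitor gene Rnh1, reached 2-fold in any of the 4 comparisons. Their differences on the log2(FPKM + 1) scale ranged from -0.23 to 0.38 in the 2 comparisons of amiodarone. The value of 0.38 is that of Rnh1. Rnase4, a broadly expressed ribonuclease, was the most abundant, at 306.59, 307.19, 317.21 and 295.43 FPKM with vehicle, amiodarone, dabigatran and the combination. Ang, which encodes the angiogenic ribonuclease angiogenin, had 40.00, 33.90, 41.43 and 36.35 FPKM in the same order. Ang and Rnase4 overlap from 51091077 on chromosome 14, so their reads were partly divided by estimation. Rnase6, an antimicrobial ribonuclease of phagocytes, had between 8.30 and 9.38 FPKM in all 4 libraries.

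Rnh1, the inhibitor on chromosome 7, was higher with amiodarone, at 75.45, 92.72, 74.47 and 97.50 FPKM. The ratio was 1.23 (1.16 to 1.30) for amiodarone against vehicle and 1.31 (1.24 to 1.38) for the combination against dabigatran. Rnase2b and Rnase2a are eosinophil-type ribonucleases that RefSeq also lists as Ear5 and Ear11. Rnase2b had 2, 13, 2 and 2 reads in the same order of libraries, all under 1 FPKM, with a ratio of 6.19 (1.40 to 56.5) for amiodarone against vehicle. Rnase2a had 0, 3, 0 and 1 reads. The remaining 6 listed genes in the table had at most 5 reads in any library.

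The name of the Ear genes points to eosinophils, so the defining genes of that cell were read in the same libraries. Of 8 eosinophil markers 6 are in the table, while Epx and Prg3 have no value among the genes measured. The levels of the 6 summed to 4.23 FPKM (vehicle), 4.92 FPKM (amiodarone), 5.57 FPKM (dabigatran) and 8.79 FPKM (combination). Siglecf and Adgre4 made up most of this sum in each library. Prg2, which encodes the granule major basic protein, had 0, 2, 0 and 1 reads. Ccr3, the eotaxin receptor, had 0, 3, 3 and 0 reads. Il5ra, the interleukin-5 receptor chain, had 0.36, 0.09, 0.42 and 0.21 FPKM in the same order of libraries. Prg2, Ccr3 and Il5ra were thus at or under 0.14 FPKM in the amiodarone library. Alox15, which macrophages can also express, had 0.48, 0.32, 1.15 and 0.76 FPKM. Siglecf, which alveolar macrophages also express, had 2.01, 2.96, 2.44 and 5.63 FPKM, and Adgre4 had between 1.36 and 2.12 FPKM. The part of eosinophils in the levels of the Ear genes was not tested.

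Among genes of type 2 cytokines, eosinophil chemokines and their receptors, 18 of 20 are in the table. Of the 12 with at least 1 FPKM, 1 was at least 2-fold higher with amiodarone than with vehicle and 0 were lower, against 1.87% and 0.545% of all genes, with a median difference of 0.44 against -0.05 over all genes. The gene past 2-fold, named after its values were seen, was the chemokine gene Ccl8, at 3.65 and 8.83 FPKM, and with reads scaled to the library total 0 genes of the list passed. In the combination against dabigatran, 1 gene was again at least 2-fold higher, against 1.15% of all genes, which was Csf2rb, the common beta chain of the receptors for interleukin-3, interleukin-5 and GM-CSF. It had 5.27 FPKM with dabigatran and 12.28 FPKM with the combination. Il33, an epithelial alarmin of type 2 immunity, had 28.17, 39.63, 23.79 and 33.51 FPKM with vehicle, amiodarone, dabigatran and the combination. Il4ra, the receptor chain for interleukin-4 and interleukin-13, had 36.03, 62.91, 38.36 and 49.84 FPKM. Stat6 had 44.06, 42.05, 42.57 and 45.78 FPKM, and was the 1 gene of the 12 with a lower value with amiodarone than with vehicle. Il5 and Il13 had at most 6 reads in any library.

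Other genes of the alveolar macrophage differed in both directions. All 15 alveolar macrophage markers are in the table. With amiodarone against vehicle, 6 of 14 were at least 2-fold higher and 1 at least 2-fold lower, against 1.87% and 0.545% of all genes, and the median difference was 0.61. In all, 10 had a higher and 4 a lower value, and the lower ones were Fabp1, Cidec, Krt79 and Fabp4. In the combination against dabigatran, 6 of 15 were higher and 1 lower by 2-fold, against 1.15% and 0.434% of all genes, with a median of 0.95 against -0.01 over all genes. Their levels summed to 410 and 467 FPKM in the vehicle and dabigatran libraries, and to 1265 and 1420 FPKM in the amiodarone and combination libraries. Chil3, a chitinase-like protein, had 90.3, 731, 113 and 940 FPKM, and made up most of the sum in the 2 libraries with amiodarone. Lpl, lipoprotein lipase, had 63.8, 138, 65.0 and 99.2 FPKM, and Plet1, a surface protein, 28.7, 80.1, 31.9 and 81.4 FPKM. Car4, a carbonic anhydrase that capillary endothelium also expresses, had between 146 and 194 FPKM. The 1 marker that was lower by 2-fold in both comparisons was Fabp1, a fatty acid-binding protein, named after its values were seen. It had 5.79, 0.25, 5.46 and 1.58 FPKM, from 44, 2, 42 and 13 reads. As for Ear1, amiodarone was below the combination, which was below both libraries without amiodarone. Cidec, at 7.54, 3.5, 8.65 and 6.58 FPKM, had the same order. So did 4 genes of other lists, namely Ang, Il5ra, the club cell gene Scgb1a1 and Eno3. Eno3, of the patrolling monocyte list, had 32.81, 17.01, 27.87 and 17.46 FPKM. In whole lung, fewer cells of a type and less RNA per cell cannot be told apart.

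Several markers of recruited myeloid cells were at least 2-fold higher in the libraries in which Ear6 was high. Of 12 markers of recruited monocytes and macrophages, 7 were at least 2-fold higher with amiodarone than with vehicle and 4 were with the combination than with dabigatran, against 1.87% and 1.15% of all genes, and 0 were 2-fold lower. The median differences were 1.06 and 0.79. Cx3cr1, a chemokine receptor, had 6.85, 5.27, 6.89 and 4.84 FPKM, a lower value in both comparisons, and Arg1, an arginase, was at 1.04, 0.68, 0.59 and 1.75 FPKM. Their summed level was 183 and 187 FPKM in the libraries with vehicle and dabigatran, 473 FPKM in the amiodarone library and 397 FPKM in the combination. Ly6c2, a surface antigen of classical monocytes, had 28.2, 115, 34.9 and 75.8 FPKM. Spp1, the gene of osteopontin, had 47.7, 107, 35.9 and 96.4 FPKM, and the complement gene C1qa 39.0, 81.2, 42.4 and 72.5 FPKM. Of 7 neutrophil markers, 5 and 6 were at least 2-fold higher in the 2 comparisons, again against 1.87% and 1.15% of all genes, while Ngp, a granule protein gene, was at 1.14, 0.92, 0.82 and 1.63 FPKM. Their levels summed to 95 and 71.4 FPKM in the vehicle and dabigatran libraries, and to 596 and 434 FPKM in the amiodarone and combination libraries. All 12 and all 7 markers of these lists had reads in every library. The part of these cells in the levels of Ear6 was not tested.

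The 8 markers of patrolling monocytes, in which Ear2 is known, had a median difference of 0.09 for amiodarone against vehicle and 0.01 for the combination against dabigatran, with 0 higher and 1 lower by 2-fold in each, against 0.545% and 0.434% of all genes that were lower. The lower gene was Nr4a1, an immediate early transcription factor, at 81.4, 35.5, 115 and 15.0 FPKM. Ace, which endothelium also expresses, had 281, 418, 327 and 330 FPKM. The summed level of this list ranged from 419 to 522 FPKM over the 4 libraries, and Ace made up most of it in each. The part of patrolling monocytes in the levels of Ear2 was not tested. Of 6 lung epithelial markers, 0 reached 2-fold in any comparison, with Sftpc, the surfactant protein C gene, between 19587 and 20385 FPKM. Scgb1a1, the secretoglobin gene of club cells and the most abundant of the list, had 124168, 73994, 99032 and 97786 FPKM, with a ratio of 0.596 for amiodarone against vehicle. The libraries thus held the defining markers of the labelled tissue. The median difference over this list was 0.01 and 0.08 in the comparisons of amiodarone.

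**Figure D4:**
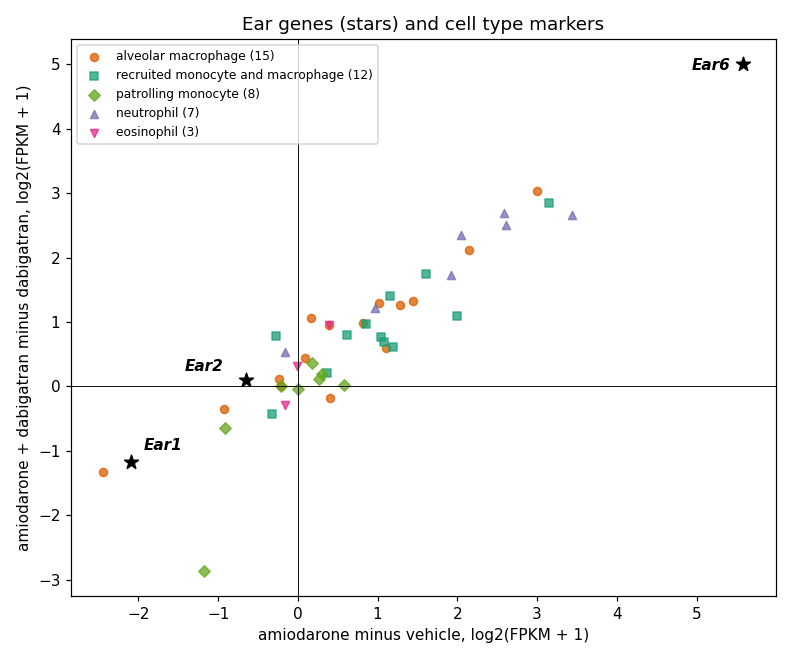
Difference on the log2(FPKM + 1) scale for amiodarone minus vehicle (horizontal) and for amiodarone and dabigatran minus dabigatran (vertical), for the Ear genes (stars) and for cell type markers with at least 1 FPKM in a library, whose number is in brackets. Ear6 lies at 5.59 and 5.0, beyond every marker drawn, Ear1 lies at -2.09 and -1.17 near the marker Fabp1, and Ear2 lies at -0.66 and 0.10.

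The genes whose pattern was most like that of each Ear gene were found by the Euclidean distance between the 3 differences from vehicle on the log2(FPKM + 1) scale, over 12653 genes with at least 50 reads in every library. All 3 differences share the vehicle library, and the distances are descriptions. Among the genes nearest to Ear1 were Wnt10b, a Wnt ligand (distance 0.35), and Ces1f, a carboxylesterase (0.72). Wnt10b had 6.87, 1.2, 7.08 and 2.26 FPKM with vehicle, amiodarone, dabigatran and the combination. Nearest to Ear2 were Fdxacb1 (0.10), Cr2, a complement receptor of B cells (0.12), and Fcrl1, a B cell surface protein (0.13). With vehicle and amiodarone, Fdxacb1 had 3.27 and 1.75 FPKM, Cr2 1.38 and 0.5 FPKM, and Fcrl1 3.98 and 2.2 FPKM. Ear2 had 62.35 and 39.21 FPKM. At such low levels the added 1 shrinks a difference, so equal differences are not equal ratios. Ear6 itself, with 4 and 0 reads without amiodarone, is below the limit of 50 reads, so genes as near to 0 as Ear6 in those libraries were not compared. Among the genes compared, the closest to Ear6 were Slfn4, a Schlafen gene of myeloid cells (distance 2.02), with 1.16, 50.2, 1.12 and 14.9 FPKM, then Retnlg, a resistin-like gene of neutrophils (2.91), with 9.24, 110, 9.22 and 63.5 FPKM, and Gpnmb, a glycoprotein of lipid-laden macrophages (2.92), with 3.38, 37.9, 4.30 and 37.0 FPKM.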

How the data were processed

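Lung mRNA was profiled in 4 libraries, 1 for each treatment, and each library was assigned by its treatment label. According to the methods, the authors mapped clean DNBseq reads to GRCm38.p6 with HISAT and to reference gene sequences with Bowtie2, and calculated expression with RSEM. The authors deposited, for each library, an estimated count of reads per gene and a normalized value whose unit is not named in the sources used here. The deposited values were read as FPKM, since reads per unit of value differed between amiodarone and vehicle by 1.07, the ratio of their total reads. Another 8 columns hold the authors' means over 2 libraries and were not used.

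Ratios of FPKM were given exact Clopper-Pearson intervals from the rounded estimated counts (Python 3.11.15, SciPy 1.17.1), and a count of 0 was set to a floor of 3 reads. For all genes, log2(FPKM + 1) was used with a filter of 1 FPKM in either library, which understates the change of low genes. Identities came from MAFFT alignments of RefSeq promoters and of GENCODE M21 coding sequences. All 3 Ear genes had a RefSeq promoter. Other settings were the median-ratio scaling, reads scaled to the library total, pseudocounts of 1 and 0.1, filters of 5 FPKM and none, a 1.5-fold limit and the sum of the Ear genes. The procedure was tested on simulated data.

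The members, lists and tests were chosen with earlier results of these data known. The genes named are the Ear genes, the ribonuclease A family, up to 4 genes per list with the highest mean FPKM or with no reads in a library, and the 3 nearest genes to each Ear gene, of which 1 is not reported here. Il5, Ccl8, Csf2rb, Fabp1, Fabp4, Cidec, Krt79, Cx3cr1, Arg1 and Ngp were named after their values were seen. Epx and Prg3 were named as listed markers without a value.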

Additional observations from a re-analysis of the deposited data

Results flagged for a closer look

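The ratio of Ear2 was below 1 for amiodarone against vehicle, at 0.629, and above 1 for the combination against dabigatran, at 1.07. The first comparison had chosen the gene. The counting interval of the second ratio, 0.970 to 1.19, holds 1, so that no opposite movement was shown, and the difference between the 2 ratios was not tested, since each group has 1 library.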

How the results depend on the processing

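Scaling by the median ratio over genes, and reads scaled to the library total, left all 11 ratios of the Ear genes in place. In place means within the counting interval of the ratio. For Ear6 in the combination against dabigatran, where the floor of 3 reads was used, it means within 1.5 times the ratio. A pseudocount of 0.1 left 10 in place, and moved that ratio of 121 to 311. A pseudocount of 1 left 9 in place. With it the ratio of Ear6 was 48.1 for amiodarone against vehicle and 32.0 for the combination against dabigatran, which follows from the near-absent reads in the second library. Replacing each gene by the sum of the 3 Ear genes gave 1.27 for amiodarone against vehicle, 1.25 for the combination against dabigatran and 0.986 for the combination against amiodarone. For Ear1 this turned the direction in all 3 comparisons, for Ear2 it turned that of the first and the last and moved the second, and for Ear6 it moved all 3, since the sum mixes copies that differ in direction. The number of genes past the fold was 323 for amiodarone against vehicle, 212 for the combination against dabigatran, 63 for the combination against amiodarone and 21 for dabigatran against vehicle. With a pseudocount of 0.1 it was 588, 364, 157 and 87, and at 1.5-fold it was 1109, 708, 302 and 128, in the same order. Reads scaled to the library total gave 96 and 33 for the last 2, and a filter of 5 FPKM gave 8 for the last. Over the 8 gene lists in 4 comparisons, the number past the fold moved by over 1.5 times in 13 of 32 cases at 1.5-fold, in 6 with a pseudocount of 0.1 and in 2 each with a filter of 5 FPKM and with reads scaled to the library total. No paired analysis was possible because each group has 1 library. Ear6 had 4 reads or fewer without amiodarone, which limits the precision of every ratio to those libraries.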
